A study of Mus musculus with 6 samples.

Results

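Macrophages and other myeloid cells of the renal cortex were followed through 42 genes on one-colour Agilent arrays. The genes were taken from a list of names, and every probe spot on the array that carried one of these names and was not a control was used. All 42 genes had at least 1 probe, here called a feature, with 70 features in all of 56470 with values. Of these, 36 genes with 46 features were bright enough to be tested, among 15497 genes with 29890 features tested on the whole array. By class, the list held 11 genes of resident macrophages, 2 of monocytes, 3 of damage-associated macrophages, 2 of neutrophils and 24 that several kinds of myeloid cell share.

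The 6 arrays came from male mice at an age of 16 weeks, 3 labelled db/m and 3 labelled db/db. Db/db mice lack a working leptin receptor and become obese and diabetic, whereas db/m mice carry 1 mutant copy and stay non-diabetic, both on the C57BLKS/J background. The labels and the study's text differ on what the arrays compared. The labels call the first group control and db/m and the second group model and db/db, whereas the paper and the design text describe db/db mice given Huangqi decoction (HQD), a herbal decoction, for 8 weeks, against untreated db/db mice, and do not name the dose for these arrays. The groups are therefore written as labelled, and every difference is the mean of the arrays labelled db/m minus the mean of the others, with no statement on which of the accounts holds. In the paper's animal groups, db/m mice and db/db mice without HQD were given the vehicle, carboxymethylcellulose, by daily gavage over the same 8 weeks. Nothing in the labels ties an array to a separate mouse, so p-values measure the spread between these arrays.

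Many resident macrophages settle in the kidney early in life, depend on signals through the CSF1 receptor, and clear debris and immune complexes with complement C1q and Fc receptors. Monocytes enter from the blood through the chemokine receptor CCR2, and neutrophils bring the S100A8 and S100A9 proteins. In diabetic kidney disease, macrophages gather in glomeruli and the interstitium. The renal cortex holds all of these cells in small numbers beside tubules, so that in a bulk extract more cells of a type and more RNA per cell cannot be told apart. The tissue label was borne out by its markers, as 9 of 9 proximal tubule genes and 6 of 6 podocyte genes were bright enough to be tested.

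The features that carry the main results are shown first, because several of the differences below turned on which feature of a gene was read. Each is given as a stretch of 30 of its 60 bases, 5′ to 3′, with the position of the whole feature on the mm9 build as the scanner files give it. Laptm5 and Ms4a7 had the lowest p-values among the members, and Lyz1 and Lyz2 encode related proteins. Capitals mark the longest run of 2 alternating bases in the features of Itgam and Ptprc that stood for these genes.
Laptm5, chr4:130490785-130490844, plus strand: aagagaatctggccaagcaatagttcctgg
Ms4a7, chr19:11395903-11395962, minus strand: agcagagtacagctagacttgcctgaaatc
Itgam, brightest feature, chr7:135261755-135261814, plus strand: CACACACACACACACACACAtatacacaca
Itgam, other feature, chr7:135212140-135212199, plus strand: tgttaaccagacaggtgccctctaccagtg
Ptprc, brightest feature, chr1:140020575-140020634, minus strand: cagatagatttTATATATATgtgtatatat
Ptprc, second feature, chr1:139960089-139960148, minus strand: ttatgggaaatgtaaaattgactatggcca
Fcgr2b, chr1:172890988-172891047, minus strand: acttctgtgagtcctgaaaccaacagacac
Fcgr3, brightest feature, chr1:172984129-172984188, minus strand: ctacaaaagtaatttctctatcccaaaagc
Fcgr3, second feature, chr1:172981647-172981722, minus strand: ttacaagcaggccgggatgtttggttcttc
Lyz1, chr10:116724862-116724921, minus strand: ccaataaccacaggagcaaatctaatctca
Lyz2, chr10:116714450-116714509, minus strand: cttaagttccttcattcacactaactctga

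The brightest Itgam feature opened with 20 bases of alternating C and A, and the brightest Ptprc feature held 9 of alternating T and A. A run of at least 8 such bases was found in 2.70% of the tested features. Between the features of Lyz1 and Lyz2 the longest stretch in common was 8 bases, and between those of Fcgr2b and Fcgr3 it was 6 bases. Fcgr2b and Fcgr3 encode receptors with closely related extracellular parts, and how far their features were read by the transcripts of the other gene was not tested.

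Levels are given as log2 of the processed signal minus the 75th percentile of the array, so that 0 is the 75th percentile, and a difference of 1 is a doubling of the signal. A gene is given by its brightest tested feature. Of the 36 tested members, 30 had a positive difference and 12 were higher on the arrays labelled db/m with an unadjusted p under 0.05 (limma), which is 33.3% of them against 5.46% of all genes tested. Another 2 members, Fcgr2b and Fcgr3, were lower with such a p (5.56% against 9.74% of all genes). No member had an adjusted p under 0.05 in limma with Benjamini-Hochberg adjustment, and neither had any other gene (0% of all genes). The lowest adjusted p of a member was 0.240. Under an ordinary t-test, 8 members were higher and 2 lower at an unadjusted p under 0.05, against 3.65% and 10.9% of all genes. None passed the adjustment. With 3 arrays against 3, an exact permutation test could not go below p = 0.1 for a single gene.

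The median difference over the 36 tested members was 0.34, against -0.04 over all genes tested. The groups did not overlap for 14 members that were higher on the arrays labelled db/m (38.9% against 6.6% of all genes) and for 2 that were lower (5.56% against 16.3%). Laptm5 and Cybb are among the 14 and entered the test through the group labelled db/m. Centring each array on its median instead moved the median of all genes to -0.23 and that of the members to 0.15, a shift of the same size for every gene. The number of members higher with a p under 0.05 then was 5 in place of 12, against 2.66% of all genes. The distance between the median of the members and that of all genes was 0.38, and it was 0.25 with quantile normalization, 0.28 with normexp background correction, 0.20 with slide as a block and 0.24 without replicate 2 labelled db/db.

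**Figure D1:**
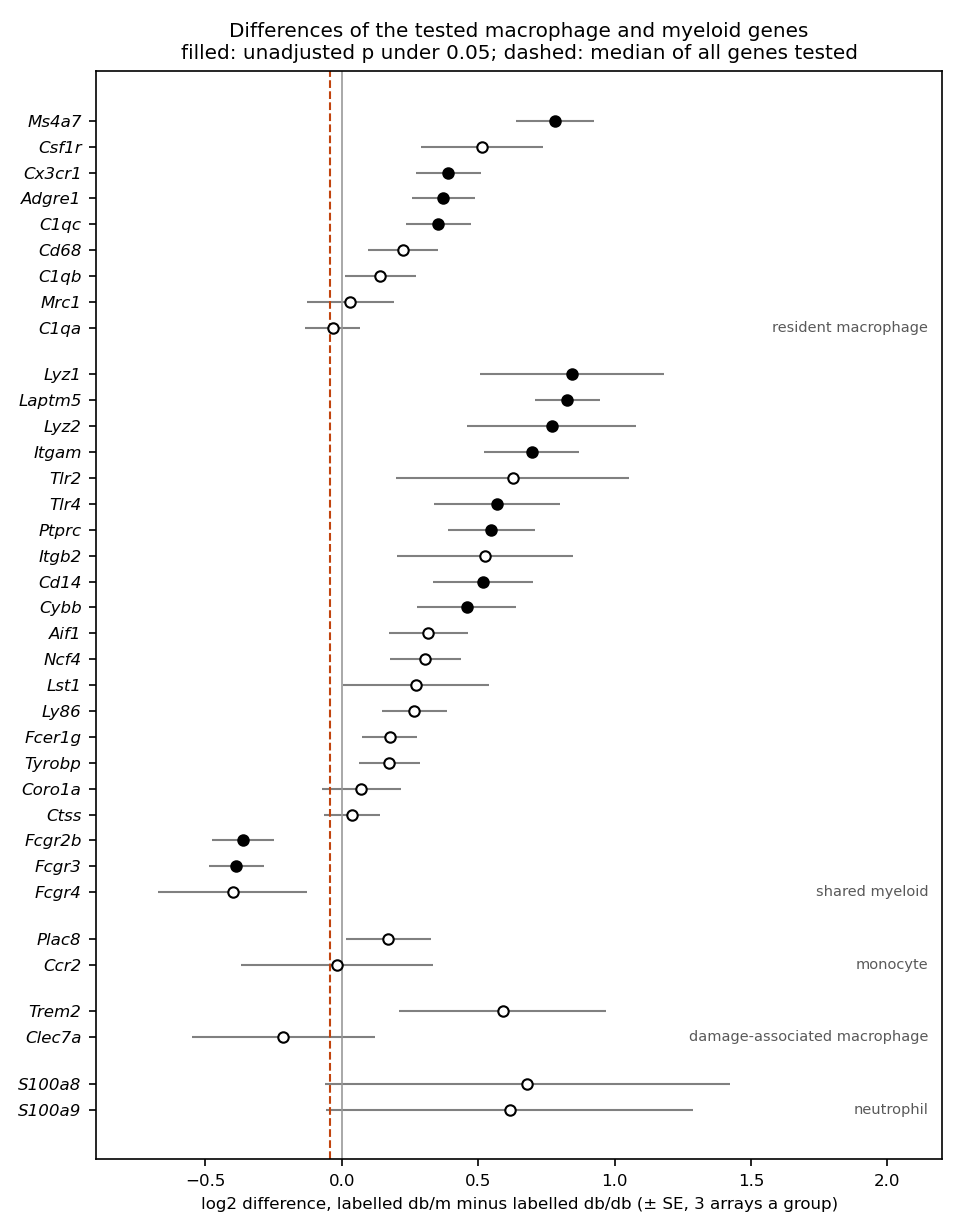
Log2 difference (labelled db/m minus labelled db/db, ± SE, 3 arrays a group) of the 36 tested members by class, with filled points for an unadjusted p under 0.05 and a dashed line at the median of all genes, -0.04. Most points lie right of the line, Fcgr2b, Fcgr3, Fcgr4 and Clec7a lie left of it, and the S100 genes have the widest errors.

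Of the 9 tested resident macrophage genes, 8 were on the positive side, and the median was 0.35, against 0.32 for the genes shared between myeloid cells. Of these, 4 were higher with an unadjusted p under 0.05 (limma), against 5.46% of all genes, and 5 were higher without overlap between the groups, against 6.6%. Ms4a7, a tetraspan membrane protein of mature macrophages, had levels of -2.53, -2.23 and -2.63 (labelled db/m) and -3.17, -3.39 and -3.18 (labelled db/db). Every array labelled db/m lay above every array labelled db/db, with a difference of 0.78 (SE 0.14, limma unadjusted p = 0.00104). Adgre1, which encodes the F4/80 antigen used to mark mouse macrophages, had levels of -1.83, -2.02 and -1.74 (labelled db/m) and -2.19, -2.24 and -2.28 (labelled db/db). The groups again did not overlap, and the difference was 0.37 (SE 0.11, limma unadjusted p = 0.015).

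Cx3cr1, the fractalkine receptor that is abundant on kidney macrophages, stood at 0.095, 0.010 and 0.28 (labelled db/m) and -0.35, -0.26 and -0.17 (labelled db/db). The array labelled db/m with the lowest level was still above all arrays labelled db/db, and the difference was 0.39 (SE 0.12, limma unadjusted p = 0.0141). Its dimmer feature had a difference of -0.25 (SE 0.21, limma unadjusted p = 0.268), of the opposite sign, so that the mean over both features was 0.071 (limma unadjusted p = 0.61). The dimmer feature was well above background on 2 of 3 arrays labelled db/m and on all 3 labelled db/db. It thus entered the test through the group in which it was higher, and its sign carries no weight of its own. Csf1r, the receptor on which macrophage survival depends, was measured at 4.01, 3.25 and 3.26 (labelled db/m) and 2.97, 2.87 and 3.13 (labelled db/db). The groups did not overlap, and the difference was 0.51 (SE 0.22, limma unadjusted p = 0.0568). Replicate 1 labelled db/m was far above the rest, and without it the difference was 0.26. The second feature of Csf1r had a difference of 0.16 (SE 0.18, limma unadjusted p = 0.407) and overlapped.

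The 3 chains of complement C1q, which bind immune complexes and apoptotic cells as one molecule, did not move alike. C1qc had levels of -0.33, -0.14 and -0.081 (labelled db/m) and -0.48, -0.67 and -0.46 (labelled db/db), without overlap and with a difference of 0.35 (SE 0.12, limma unadjusted p = 0.0226). C1qb differed by 0.14 (SE 0.13, limma unadjusted p = 0.312) and C1qa by -0.033 (SE 0.10, limma unadjusted p = 0.756), and the arrays of the groups were mixed for both. The 95% interval of the difference was -0.28 to 0.21 for C1qa and 0.067 to 0.64 for C1qc. Differences between the chains were not tested. Among the scavenger receptors, Cd68, a lysosomal glycoprotein of macrophages, differed by 0.22 (SE 0.13, limma unadjusted p = 0.121), and Mrc1, the mannose receptor, by 0.032 (SE 0.16, limma unadjusted p = 0.848), both with overlap. Cd163, the haemoglobin scavenger receptor, and Fcgr1, the high-affinity receptor for IgG, stayed near background on all 6 arrays and were not tested.

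**Figure D2:**
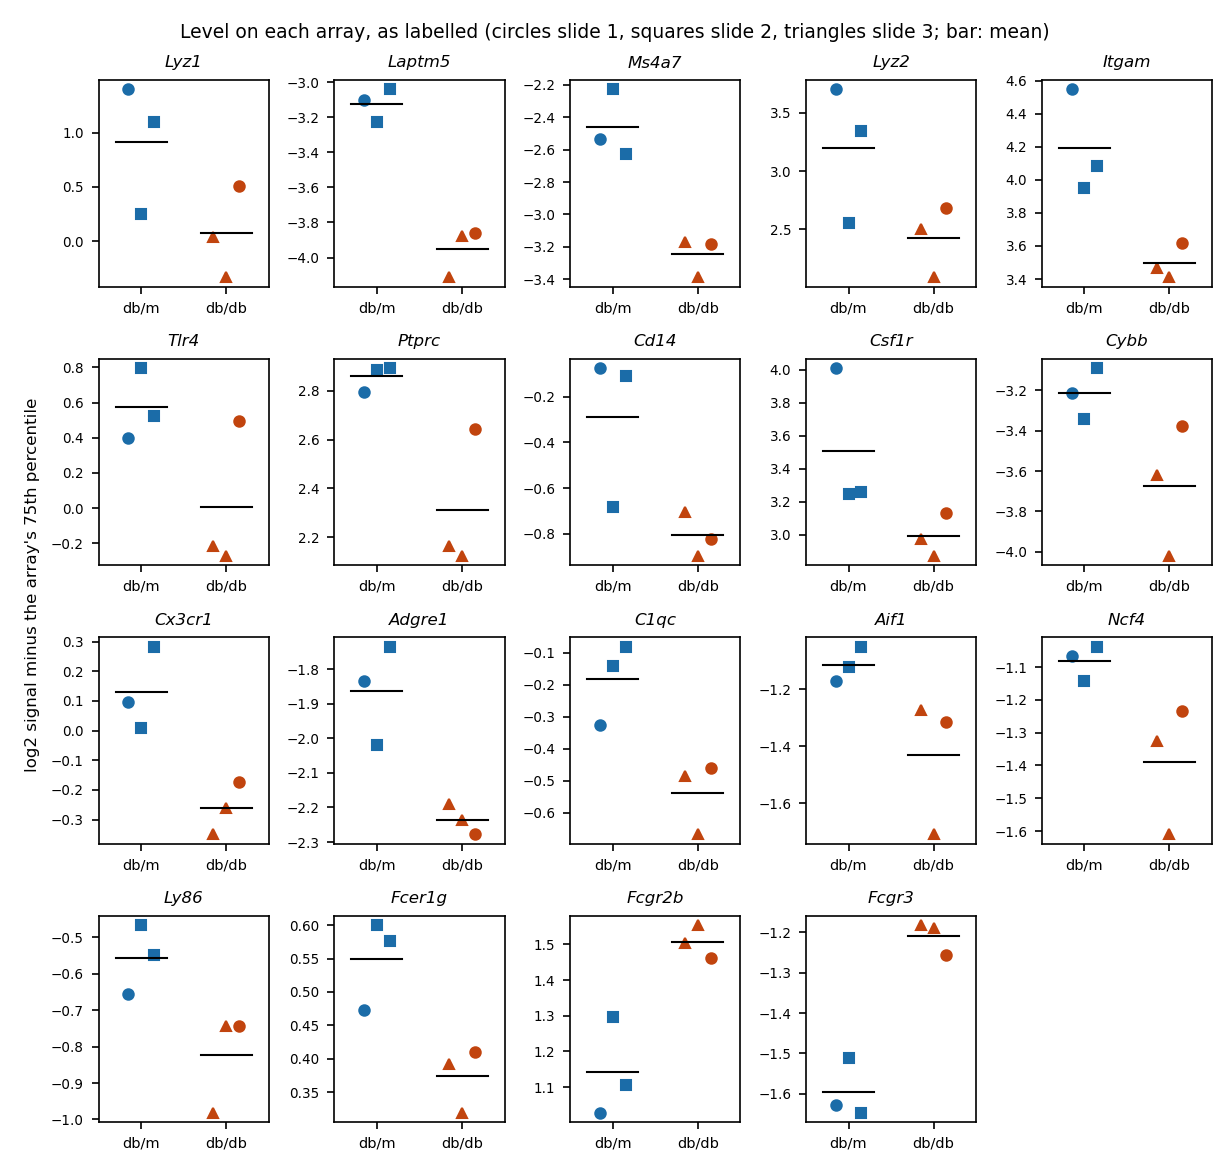
Level on each array (log2 signal minus the array's 75th percentile) of the 19 members with an unadjusted p under 0.05 or without overlap, in panels with separate axes, with blue for arrays labelled db/m, orange for labelled db/db, shapes for the slide and bars for the means. Lyz1, Lyz2 and Tlr4 are the panels in which the groups overlap, and Fcgr2b and Fcgr3 are those in which labelled db/db is higher.

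Genes shared between myeloid cells were tested for 21 of 24 names, with a median difference of 0.32. Of these, 8 were higher and 2 lower with an unadjusted p under 0.05 (limma), against 5.46% and 9.74% of all genes. Laptm5, a lysosomal membrane protein of blood cells, had levels of -3.10, -3.23 and -3.04 (labelled db/m) and -4.11, -3.88 and -3.86 (labelled db/db). Both groups were tight and far apart, and the difference of 0.83 (SE 0.12, limma unadjusted p = 2.75e-04) had the lowest p of all members. Its signal was faint, however, and was well above background on all 3 arrays labelled db/m but on 1 of 3 labelled db/db, so that the gene was tested through the group in which it was higher. The same held for Cybb, which was well above background on 2 of 3 arrays labelled db/db. Ccr2 was well above background on all 3 arrays labelled db/m and on 2 of 3 labelled db/db, and so also entered the test through the group labelled db/m. Its means were close to each other, at -3.54 (labelled db/m) and -3.52 (labelled db/db). When a feature had to be well above background on all 6 arrays, 33 members were tested. Of these, 11 were higher with an unadjusted p under 0.05 (limma), against 4.69% of all genes.

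Ptprc encodes CD45, the surface phosphatase of all leukocytes. Its brightest feature, matched by the files to an Ensembl transcript, had levels of 2.80, 2.89 and 2.89 (labelled db/m) and 2.16, 2.12 and 2.64 (labelled db/db). The arrays labelled db/m lay close together above the others, with a difference of 0.55 (SE 0.16, limma unadjusted p = 0.0119). The second feature, matched to the RefSeq transcript, stood at -1.53, -1.66 and -1.64 (labelled db/m) and -1.64, -1.81 and -1.47 (labelled db/db) and had a difference of 0.030 (SE 0.12, limma unadjusted p = 0.816). The remaining tested feature, matched to another Ensembl transcript, differed by 0.84 (SE 0.25, limma unadjusted p = 0.0137). That feature was well above background on all 3 arrays labelled db/m but on 2 of 3 labelled db/db. It thus entered the test through the group in which it was higher and adds no support of its own. Of the 2 features well above background on every array, the brightest had a p under 0.05 and the one matched to RefSeq did not. Coro1a, an actin-binding protein of leukocytes, differed by 0.072 (SE 0.14, limma unadjusted p = 0.632), and Lst1, a small membrane protein of myeloid cells, by 0.27 (SE 0.27, limma unadjusted p = 0.345). Aif1, which encodes the macrophage protein IBA1, had levels of -1.17, -1.12 and -1.05 (labelled db/m) and -1.27, -1.71 and -1.32 (labelled db/db), without overlap, and differed by 0.32 (SE 0.15, limma unadjusted p = 0.0662). Spi1, which encodes the transcription factor PU.1 of myeloid cells, stayed near background on all 6 arrays.

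Among the integrins, Itgam encodes CD11b, the alpha chain of the complement receptor of monocytes, macrophages and neutrophils. Its brightest feature, the one with the run of C and A shown above, had levels of 4.55, 3.95 and 4.09 (labelled db/m) and 3.47, 3.41 and 3.62 (labelled db/db). The groups were separate, and the difference was 0.70 (SE 0.17, limma unadjusted p = 0.0057). The other tested feature of Itgam stood at -3.10, -1.46 and -3.53 (labelled db/m) and -3.12, -3.12 and -2.36 (labelled db/db), with the highest level on replicate 2 labelled db/m and no separation of the groups. Its difference was 0.17 (SE 0.53, limma unadjusted p = 0.758), with a 95% interval of -1.10 to 1.44. Of the 93 tested features on the array with a run of at least 20 alternating bases, 25.8% were higher with an unadjusted p under 0.05, against 6.90% of all tested features, while their median difference was -0.29. The part of the repeated bases in the Itgam result was not tested. Itgb2, the beta chain that pairs with Itgam, differed by 0.53 (SE 0.32, limma unadjusted p = 0.148), and Itgax, which encodes CD11c, was not bright enough to be tested.

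**Figure D3:**
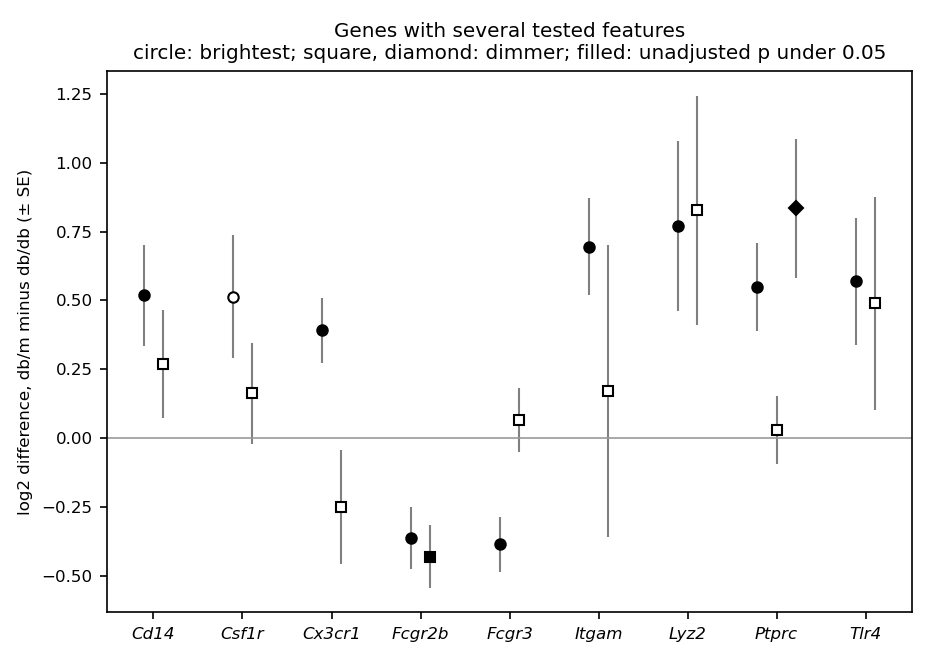
Log2 difference (labelled db/m minus labelled db/db, ± SE, 3 arrays a group) for each tested feature of the 9 members with several, with circles for the brightest feature and filled symbols for an unadjusted p under 0.05. The differences of the features of Fcgr2b, Lyz2 and Tlr4 lie close together, and those of Cx3cr1, Fcgr3, Itgam and Ptprc lie apart. For Lyz2 and Tlr4 only the brightest feature is filled.

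The 3 tested Fc receptor genes for IgG all had negative differences. Fcgr2b, the inhibitory receptor that B cells and macrophages carry, had levels of 1.03, 1.30 and 1.11 (labelled db/m) and 1.50, 1.55 and 1.46 (labelled db/db). All arrays labelled db/db lay above those labelled db/m, with a difference of -0.36 (SE 0.11, limma unadjusted p = 0.016). A second feature of Fcgr2b gave -0.43 (SE 0.11, limma unadjusted p = 0.00714), also without overlap. Fcgr3, an activating receptor for IgG, was measured at -1.63, -1.51 and -1.65 (labelled db/m) and -1.18, -1.19 and -1.26 (labelled db/db) and differed by -0.39 (SE 0.10, limma unadjusted p = 0.00687), without overlap. The second feature of Fcgr3 stood at -1.43, -1.64 and -1.70 (labelled db/m) and -1.57, -1.70 and -1.70 (labelled db/db) and differed by 0.066 (SE 0.12, limma unadjusted p = 0.591), so that the lower level of Fcgr3 rested on 1 of its 2 features and is uncertain. Fcgr4, another activating receptor, differed by -0.40 (SE 0.27, limma unadjusted p = 0.19), with overlap.

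Both adaptor genes had positive differences. Fcer1g, the common gamma chain of activating Fc receptors such as those encoded by Fcgr3 and Fcgr4, had levels of 0.47, 0.60 and 0.58 (labelled db/m) and 0.39, 0.32 and 0.41 (labelled db/db), without overlap and with a difference of 0.18 (SE 0.10, limma unadjusted p = 0.125). Tyrobp, which encodes DAP12, an adaptor of TREM2 and other myeloid receptors, differed by 0.17 (SE 0.11, limma unadjusted p = 0.162). Over the 5 tested genes of Fc receptors and adaptors the median difference was -0.36, the only role among the members with a negative median.

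The phagocyte oxidase makes superoxide in activated macrophages and neutrophils. Cybb, its catalytic chain, had levels of -3.21, -3.34 and -3.09 (labelled db/m) and -3.62, -4.02 and -3.38 (labelled db/db), just without overlap, and a difference of 0.46 (SE 0.18, limma unadjusted p = 0.0405). Ncf4, a cytosolic subunit, was measured at -1.07, -1.14 and -1.04 (labelled db/m) and -1.33, -1.61 and -1.23 (labelled db/db), also without overlap, and differed by 0.31 (SE 0.13, limma unadjusted p = 0.0521). Ncf1, another cytosolic subunit, was not bright enough to be tested.

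The lysozyme genes, whose products break down bacterial cell walls, were higher on the arrays labelled db/m with overlap between the groups. Lyz1 had levels of 1.40, 0.25 and 1.10 (labelled db/m) and 0.041, -0.33 and 0.51 (labelled db/db) and a difference of 0.84 (SE 0.34, limma unadjusted p = 0.0425). Lyz2, the lysozyme of macrophages and neutrophils, stood at 3.70, 2.55 and 3.34 (labelled db/m) and 2.51, 2.09 and 2.69 (labelled db/db) and differed by 0.77 (SE 0.31, limma unadjusted p = 0.043). For both genes, replicates 1 and 3 labelled db/m were high, and replicate 2 fell among the arrays labelled db/db. The second feature of Lyz2 had the same order of arrays within the group labelled db/m and a difference of 0.83 (SE 0.42, limma unadjusted p = 0.0884). That second feature was well above background on all 3 arrays labelled db/m but on 2 of 3 labelled db/db. It thus entered the test through the group in which it was higher and adds no support of its own. Ctss, a lysosomal cysteine protease of antigen-presenting cells, differed by 0.038 (SE 0.10, limma unadjusted p = 0.718), with a 95% interval of -0.20 to 0.28.

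Cd14, the co-receptor for lipopolysaccharide, had levels of -0.075, -0.68 and -0.11 (labelled db/m) and -0.70, -0.90 and -0.82 (labelled db/db). The step between the groups was narrow at replicate 2 labelled db/m, although the groups did not overlap, and the difference was 0.52 (SE 0.18, limma unadjusted p = 0.0263). The second feature of Cd14 differed by 0.27 (SE 0.20, limma unadjusted p = 0.217), with overlap. Tlr4, the receptor for lipopolysaccharide, was measured at 0.40, 0.80 and 0.52 (labelled db/m) and -0.21, -0.27 and 0.50 (labelled db/db). Replicate 3 labelled db/db lay within the range of the arrays labelled db/m, and the difference was 0.57 (SE 0.23, limma unadjusted p = 0.0439). This feature was matched to an Ensembl transcript. The second feature of Tlr4, matched to RefSeq, stood at -1.99, -2.95 and -2.05 (labelled db/m) and -3.24, -2.07 and -3.14 (labelled db/db). It differed by 0.49 (SE 0.39, limma unadjusted p = 0.247), with overlap and another order of the arrays. Ly86, which encodes MD-1 and binds a relative of the toll-like receptors, stood at -0.66, -0.47 and -0.55 (labelled db/m) and -0.98, -0.74 and -0.74 (labelled db/db), without overlap, and differed by 0.27 (SE 0.12, limma unadjusted p = 0.0627). Tlr2, the receptor for bacterial lipoproteins, had the spread of Lyz1, with levels of -0.64, -2.34 and -1.09 (labelled db/m) and -1.65, -2.25 and -2.04 (labelled db/db) and a difference of 0.63 (SE 0.43, limma unadjusted p = 0.186).

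Genes of damage-associated macrophages gave no common direction. Trem2, a lipid receptor of macrophages in injured and fatty tissue, had levels of -2.05, -3.51 and -2.42 (labelled db/m) and -2.92, -3.28 and -3.55 (labelled db/db), and the difference was 0.59 (SE 0.38, limma unadjusted p = 0.165). Clec7a, the receptor for fungal beta-glucan, stood at -1.87, -1.78 and -1.49 (labelled db/m) and -2.06, -1.72 and -0.72 (labelled db/db). It was highest on replicate 3 labelled db/db, and the difference was -0.21 (SE 0.34, limma unadjusted p = 0.544). Without that array the difference of Clec7a was 0.18 (limma unadjusted p = 0.362). Gpnmb, a glycoprotein of lipid-laden macrophages, stayed near background on all 6 arrays.

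The monocyte genes did not separate the groups. Ccr2, the receptor through which monocytes leave the marrow and enter tissue, had levels of -3.78, -3.26 and -3.57 (labelled db/m) and -3.65, -4.16 and -2.75 (labelled db/db), highest on replicate 3 labelled db/db, and differed by -0.018 (SE 0.35, limma unadjusted p = 0.96). Plac8, a cysteine-rich protein of inflammatory monocytes and neutrophils, differed by 0.17 (SE 0.16, limma unadjusted p = 0.308).

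The neutrophil genes had the largest spread within a group. S100a8 was measured at -0.55, -2.55 and -3.18 (labelled db/m) and -2.44, -3.82 and -2.05 (labelled db/db), and S100a9 at 1.68, -0.0030 and -0.52 (labelled db/m) and 0.35, -1.34 and 0.30 (labelled db/db). Both were highest on replicate 1 labelled db/m and lowest on replicate 2 labelled db/db, and the remaining arrays of both groups were mixed. The difference was 0.68 (SE 0.74, limma unadjusted p = 0.391) for S100a8 and 0.61 (SE 0.67, limma unadjusted p = 0.393) for S100a9. Without replicate 1 labelled db/m, these values were -0.089 and -0.034. Of 13 further neutrophil genes, 5 were tested, with a median difference of 0.071. Camp, which encodes an antimicrobial peptide, was higher by 0.31 (SE 0.11, limma unadjusted p = 0.0232). Ltf, which encodes lactoferrin, was well above background on the 3 arrays labelled db/db and on none labelled db/m. It entered the test only through the group in which it was higher, and its difference is not given. Cxcr2, Mpo, Ngp, Mmp8 and Mmp9, which mark neutrophils and their precursors, were not bright enough to be tested.

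**Figure D4:**
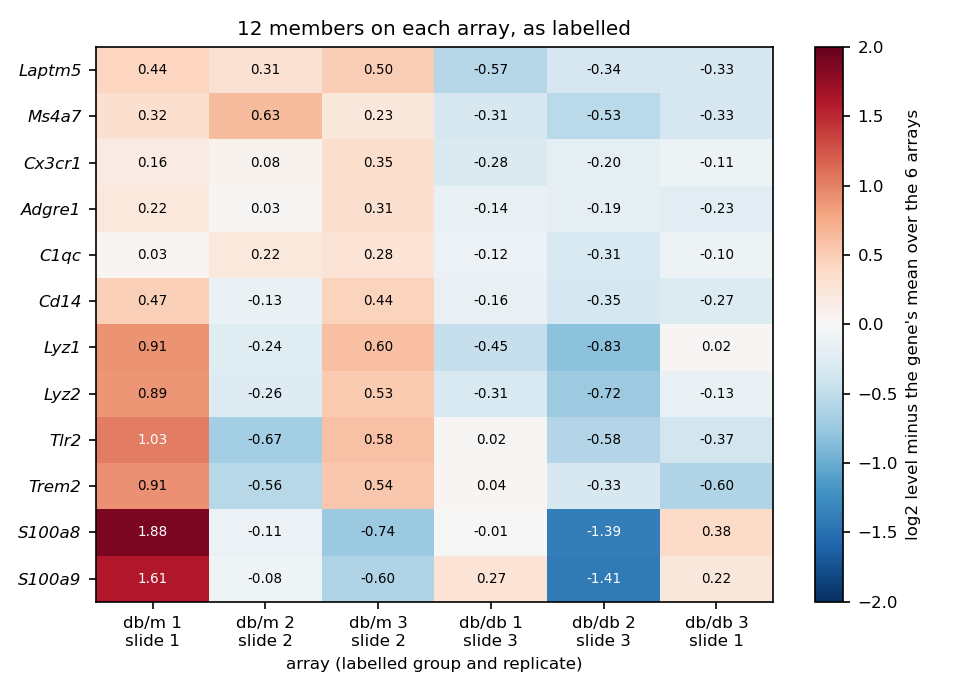
Level of 12 members on each of the 6 arrays, as log2 level minus the mean of the gene over the arrays (red higher, blue lower), with the slide under each array. The 5 genes at the top separate the groups, as does Cd14. Cd14, Lyz1, Lyz2, Tlr2 and Trem2 are highest on replicates 1 and 3 labelled db/m, and the S100 genes are high on replicate 1 labelled db/m.

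The members thus fell into different orders over the arrays. Laptm5, Ms4a7, Cx3cr1, Adgre1 and C1qc were among the 14 members that were higher on every array labelled db/m, and 2 members were lower on every one. Laptm5 entered the test through the group in which it was higher, and the dimmer feature of Cx3cr1 did not separate the groups. Cd14 was also one of the 14. Cd14, Lyz1, Lyz2, Tlr2 and Trem2 were each at their highest on replicates 1 and 3 labelled db/m, with replicate 2 below the mean of the gene. Clec7a, Ccr2 and Lst1 were at their highest on replicate 3 labelled db/db. These sets were drawn up after the values were seen and have no test.

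The arrays were spread over 3 slides, which did not hold the groups evenly. Slide 1 held replicate 1 labelled db/m and replicate 3 labelled db/db, slide 2 held only arrays labelled db/m and slide 3 only arrays labelled db/db, so that for 4 of 6 arrays slide and group cannot be told apart. On slides 2 and 3, 33 of 36 members had a positive difference, with a median of 0.35. Within slide 1, 22 members had a positive difference, with a median of 0.14, while the median of all genes was -0.055 on slides 2 and 3 and -0.059 within slide 1. Of all genes, 42.5% were positive on slides 2 and 3 and 43.1% within slide 1. Of the 12 members higher with a p under 0.05, 11 were also higher within slide 1, and Tlr4 was not (-0.096 within slide 1 against 0.90 on the others). The pair on slide 1 is part of the difference by which these 12 were picked, so this count is no separate support. The same share among all genes higher with such a p was not counted. The second feature of Tlr4 gave 1.15 within slide 1 and 0.16 on the others. The values within slide 1 were 0.76 for Laptm5, 0.65 for Ms4a7 and 0.44 for Adgre1, close to those on the other slides (0.86, 0.85 and 0.34). For Ptprc the values were 0.15 and 0.75, for Cybb 0.16 and 0.61, and for C1qc 0.13 and 0.46.

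With slide as a block, which rests on the pair of arrays on slide 1, 4 members were higher and 2 lower at an unadjusted p under 0.05 (limma), against 3.01% and 5.33% of all genes, so that the share of lower members (5.56%) was near that of all genes. Of the 12 members that were higher without the block, Itgam and Laptm5 kept such a p (0.00441 and 0.0185), and neither of the 2 lower members did. Csf1r and Trem2 were the other higher genes with the block, and the lower ones were Ccr2 and Clec7a, both highest on replicate 3 labelled db/db, which is the array of that group on slide 1. When each array was left out in turn, 5 of the 14 members with a p under 0.05 kept it every time, namely Laptm5, Ms4a7, Itgam, Ptprc and Fcgr3. Laptm5 entered the test through the group in which it was higher. Itgam, Ptprc and Fcgr3 each had another tested feature without such a p over all 6 arrays. How many of all genes kept such a p every time was not counted. The count of higher members was lowest without replicate 3 labelled db/m, at 5 (2.78% of all genes). It was highest, at 13, without replicate 2 labelled db/m (9.99%) or replicate 3 labelled db/db (9.55%). Without replicates 1 and 2 labelled db/db it was 7 (3.27%) and 6 (2.79%).

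**Figure D5:**
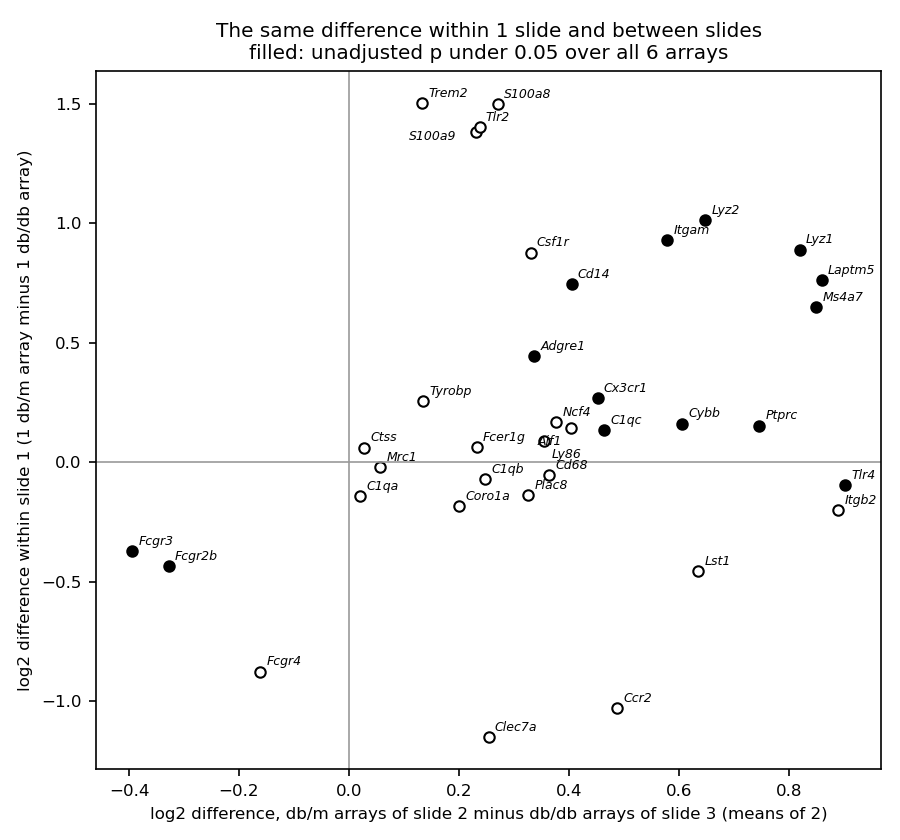
Log2 difference of the 36 tested members within slide 1 (vertical axis, 1 array a group) against that between slides 2 and 3 (horizontal axis, means of 2 arrays), with filled points for an unadjusted p under 0.05 over all 6 arrays. The upper right part holds 22 members, Clec7a, Ccr2 and Lst1 lie lowest among those that are positive on the horizontal axis, and Trem2, Tlr2 and the S100 genes lie highest.

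Genes outside the list were read for the same cells and for cells that could move with them. Of 8 further resident macrophage genes 3 were tested (Folr2, Mertk and Pf4), with a median of 0.069 and none with a p under 0.05, and Timd4, Vsig4, Siglec1, C5ar1 and Cd5l were not bright enough. Of 6 further monocyte genes 3 were tested, with a median of -0.033 and none with such a p. Among 12 growth factors and chemoattractants of myeloid cells 6 were tested, with a median of 0.44, all 6 positive and 2 with a p under 0.05. Ccl2, the ligand of Ccr2, had levels of -2.18, -2.22 and -1.57 (labelled db/m) and -3.39, -2.44 and -2.87 (labelled db/db), without overlap, and a difference of 0.91 (SE 0.28, limma unadjusted p = 0.0152). Il34, a second ligand of Csf1r that tubule cells make, stood at 0.86, 0.00082 and 0.65 (labelled db/m) and 0.076, -0.24 and -0.10 (labelled db/db), with overlap, and differed by 0.59 (SE 0.23, limma unadjusted p = 0.039).

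Markers of T, B and mast cells were on the positive side as well. All 6 tested T cell genes of 12 were positive, with a median of 0.25 and 1 past an unadjusted p of 0.05 (Cd8b1), as were all 4 tested B cell genes of 8, with 1 past that p (Cr2). Both tested mast cell genes of 6 were past it, Cma1 with 0.79 and Fcer1a with 0.54. Both were well above background on every array labelled db/m but on 2 of the others, and so entered the test through the group in which they were higher. Of 7 dendritic cell genes and 7 NK cell genes 3 each were tested, and none was past it. Of 8 endothelial genes Erg was past it, and the median was 0.12. The 7 tested genes of blood and the 7 of stroma had medians of -0.18 and 0.030, with none past it. The 9 proximal tubule genes had a median of -0.27, 8 of them negative and none with such a p, and the summed signal of these genes, relative to the 75th percentile, ran from 1178 to 1637 on the arrays labelled db/m and from 1489 to 1722 on those labelled db/db. The summed signal of the 36 members ran from 70.9 to 93.5 and from 51.5 to 66.8. The 6 podocyte genes, all negative, had a median of -0.15. Of the 3 genes of thick limb and collecting duct, 2 were positive, and their median was 0.34, the same as that of the members. Their median level around the mean of each gene was 0.83, -0.38 and 0.27 (labelled db/m) and 0.097, -0.12 and -0.18 (labelled db/db). None of these podocyte, thick limb and collecting duct genes had such a p. The part of the other cell types in the results on the members was not tested.

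The promoters of the members were read for the letters GAGGAA, the core that PU.1 and related factors bind, on both strands. RefSeq sequences from 250 bases before to 50 after the start (GRCm38.p6) were at hand for 32 of 42 members. The letters were found for 18 of these genes (56.2%), against 31.3% of all 27025 genes with such a sequence, or in 20 of 38 promoters against 28.3% of all 32851. Of the higher members with a p under 0.05, 6 of 9 had them, and of the tested members without such a p 10 of 16, so that the share was near the same in both. Stretches of 30 bases are shown for the higher members in which the letters lie before the start, with the match in capitals and the strand of the gene, where TTCCTC is the match on the opposite strand.
Laptm5, chr4:130913266-130913295, plus strand: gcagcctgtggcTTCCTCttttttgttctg
Itgam, chr7:128062544-128062573, plus strand: tgttttctcccgGAGGAAggctacagaggg
Ptprc, chr1:138175446-138175475, minus strand: tgttttcctttaGAGGAAaattgagacgaa
C1qc, chr4:136893090-136893119, minus strand: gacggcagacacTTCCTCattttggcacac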

How the data were processed

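For each array the authors deposited the processed signal of every spot as an intensity, made with Agilent Feature Extraction 10.7.1.1, with background subtracted and no normalization between arrays, and a table of log2 values that tracked these signals. The file of replicate 1 labelled db/m held signals written to 3 digits, the others to 7. Using limma 3.58.1 in R 4.3.3, controls and outlier-flagged spots were left out (135 features lost all spots), spots of a feature were averaged on the log2 scale and each array's 75th percentile was subtracted. No spot was saturated. A feature entered the test if the scanner software called it well above background on the 3 arrays of either group. Between 51.6% and 59.0% of features were well above background on an array, and precision is limited by the number of arrays. The comparison used lmFit and eBayes with Benjamini-Hochberg adjustment over all tested features. Names came from the file of replicate 1 labelled db/db. Members with an unadjusted p under 0.05 or without overlap are given array by array, the others were named by role. The members and lists were chosen with earlier results of these data known. The code was tested on simulated data. Alternatives were other scalings, background corrections, filters, tests, blocks and features and leaving out each array.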

Additional observations from a re-analysis of the deposited data

Results flagged for a closer look

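Features of members that were too dim for the test were flagged where an array labelled db/db was well above background and above every array labelled db/m. This held for 3 features, each time on replicate 3 labelled db/db. A second feature of Adgre1 had an intensity of 164 there, against at most 12.9 on the arrays labelled db/m. A further feature of Cd68 had an intensity of 228, against at most 104, and one of Ptprc had 84.8, while it stayed near background on the arrays labelled db/m. Groups of 3 arrays were too small for a test of single outlying arrays.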

How the results depend on the processing

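No member passed the adjusted threshold under any of the 21 alternatives. The count of 12 higher members (5.46% of all genes) was 5 with median centring (2.66%), 4 with slide as a block (3.01%) and 18 with the 75th percentile over features detected on all arrays (9.09%), and from 5 (2.78%) to 13 when each array was left out. The count of 2 lower members (9.74% of all genes) was 1 with the mean of all tested features of a gene (11.1%). It ran from 1 to 3 when each array was left out (3.50% to 13.8%). The median over the members (0.34) was 0.26 with quantile normalization, 0.15 with median centring, 0.42 with the 75th percentile over features detected on all arrays, 0.24 with normexp, 0.14 with slide as a block, 0.25 in the deposited log2 table and 0.21 to 0.39 with an array left out. That of the resident macrophage genes was 0.17 with median centring, 0.20 with normexp, 0.13 with slide as a block, 0.22 with the mean of all tested features of a gene and 0.29 to 0.35 with an array left out, and that of the shared genes was 0.13 with median centring, 0.14 with slide as a block and 0.28 to 0.51 with an array left out. The cause was not tested.

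Single members changed sign as follows. With median centring, C1qb was -0.045, Coro1a -0.11, Ctss -0.15, Fcer1g -0.011, Mrc1 -0.16, Plac8 -0.016 and Tyrobp -0.012. With slide as a block, C1qb was -0.069, Cd68 -0.054, Coro1a -0.18, Itgb2 -0.20, Lst1 -0.46, Mrc1 -0.019, Plac8 -0.14 and Tlr4 -0.096. With the 75th percentile over features detected on all arrays, C1qa was 0.054 and Ccr2 0.069. With quantile normalization, Mrc1 was -0.14. With normexp, Mrc1 was -0.016. In the deposited log2 table, Mrc1 was -0.14. When each array was left out, the values ran from -0.065 to 0.0077 for C1qa, from -0.34 to 0.37 for Ccr2, from -0.49 to 0.18 for Clec7a, from -0.057 to 0.19 for Coro1a, from -0.075 to 0.15 for Mrc1, from -0.089 to 1.22 for S100a8 and from -0.034 to 1.07 for S100a9. The sign changed without replicate 2 labelled db/db for Coro1a, without replicate 3 labelled db/db for Ccr2, Clec7a and Mrc1, without replicate 1 labelled db/m for C1qa, Ccr2, S100a8 and S100a9, without replicate 2 labelled db/m for Mrc1 and without replicate 3 labelled db/m for Ccr2.

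Whether the replicate numbers pair the arrays could not be settled. Deviations from the group means correlated at 0.35, 0.15 and 0.05 for the same numbers, and at -0.34 to 0.15 for different numbers. With the replicate block, 13 members were higher and 2 lower at an unadjusted p under 0.05 (limma), against 6.82% and 12.7% of all genes. Another choice of feature was added after the data were seen. It gave 10 higher without features holding a run of 8 or more alternating bases (5.19% of all genes), and 9 with features matched to a RefSeq mRNA (4.61%). All arrays were scanned on the same day, so that scan date as a block was not run. With 3 arrays a group, faint features such as those of Laptm5 and Cybb rest on signals near background.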
